A study of Mus musculus with 4 samples.

Results

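The 10 genes described here make up the core of the circadian clock and its best known output branch: Arntl (also written Bmal1), Clock, Per1, Per2, Per3, Cry1, Cry2, Nr1d1, Nr1d2 and Dbp. They were chosen by gene symbol, and every probe set that the platform annotation assigns to exactly 1 of these symbols was taken, which gave 23 of the 45101 probe sets and 10 of the 18193 genes named on the array. RNA came from molar teeth of 60 Swiss-Webster pups of both sexes, collected between postnatal days 1 and 10 and combined in 1 pool, with no growth or treatment protocol. The pool was hybridised to 4 Affymetrix arrays (Mouse Genome Expression 430 2.0), where several short probes, together a probe set, report 1 transcript as a signal intensity. The 4 arrays form 1 group, so the spread between them is technical, p-values measure only that spread, and no tissue, age or hour of the day can be compared. The sources used here do not give the hour at which the teeth were collected.

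In mammals the clock is a feedback loop of transcription. The activators CLOCK and BMAL1 bind as a pair to E-box sequences and switch on the Per and Cry genes, whose protein products return to the nucleus and block the activators. A side loop, in which BMAL1 and CLOCK drive the REV-ERB repressors encoded by Nr1d1 and Nr1d2, feeds back on Arntl through ROR elements, and Dbp carries the rhythm to further genes through D-box sequences. Enamel and dentin are laid down with daily growth lines, and clock proteins have been described in the ameloblasts and odontoblasts that make these tissues.

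Background was the 95th percentile, on each array, of 86 probe sets for chemosensory receptor genes (olfactory, vomeronasal and taste). This threshold lay at 996, 1097, 1295 and 1266 signal units on arrays 1 to 4. A probe set was called above background when it exceeded the threshold on all 4 arrays, and a gene when any of its probe sets did. All 11 tooth markers were above background, among them Amelx, Col1a1 and Ambn, the genes for amelogenin, type I collagen and ameloblastin, and 0 of 3 liver markers were. Markers listed for other cell types were above background as well. These were all 4 skeletal muscle, all 4 endothelial, all 4 oral epithelium, 3 of 4 immune and both measured nerve markers. At the 99th percentile, 2 of 4 immune markers and 1 nerve marker remained. Of all named genes, 51.6% were above background by this rule and 48.2% at the 99th percentile. Whether each marker came from the cell type it is listed for was not tested. Which cells the clock signals came from was not tested, and in a bulk pool few cells with much RNA cannot be told apart from many cells with little.

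By this rule 7 of the 10 clock genes were above background (Arntl, Clock, Per1, Per3, Cry2, Nr1d2 and Dbp), beside 51.6% of all named genes. Cry1 passed on 3 arrays, Nr1d1 on 2 and Per2 on none. Counted by probe set, 11 of 23 (47.8%) passed, beside 42.5% of all probe sets naming 1 gene, so the share of clock probe sets was near that of the array as a whole. In limma, a one-sided test that the log2 ratio of signal to threshold exceeds 0, adjusted by Benjamini-Hochberg over 45037 probe sets, called 9 of the 23 (39.1%), beside 41.8% of all, and the same 7 genes, beside 50.9% of all genes. The number of probe sets per gene bears on the gene count. Above background were 35.2% of all genes with 1 probe set, 60.1% with 2, 73.4% with 3, 78.0% with 4 and 87.3% with 6. Among the clock genes, 2 of 4 with 1 probe set, 3 of 3 with 2, Clock, with 4, and Per3, with 6, were above background. Per2, with 3, was not.

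**Figure D1:**
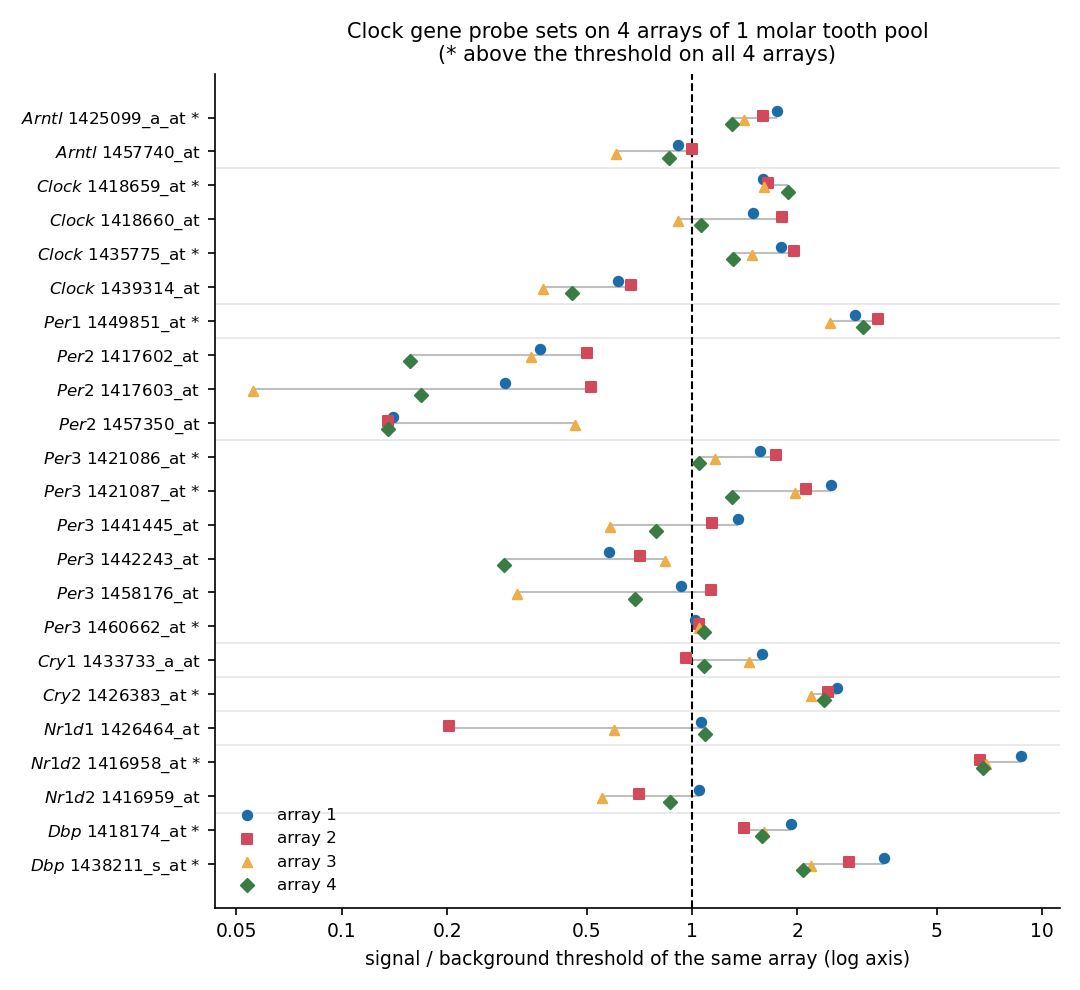
Signal divided by the background threshold of the same array (log axis) for each of the 23 clock gene probe sets, with a point per array, a grey line over the range and a dashed line at the threshold. Nr1d2 1416958_at stands farthest to the right at ratios of 6.63 to 8.71, the 3 Per2 probe sets lie left of the threshold on every array, and most other probe sets lie close to it.

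The activator gene Arntl encodes BMAL1, the bHLH-PAS partner of CLOCK. Its probe set 1425099_a_at had signals of 1741, 1739, 1828 and 1643 on arrays 1 to 4. All 4 values were above the threshold and differed little, with a mean of 1738 ± 75.6 (SD, n = 4 arrays). The mean lay 1.50-fold over the threshold (log2 ratio 0.59 ± 0.17 SE, limma adjusted p = 0.00502). The second probe set, 1457740_at, had 908, 1094, 784 and 1087, and was below the threshold on every array. The call for Arntl therefore rests on 1 probe set, whose suffix marks sequence shared by transcripts of the same gene, and without probe sets carrying such suffixes Arntl was not above background.

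The promoter of Arntl is known to carry the ROR elements through which REV-ERB proteins repress it and ROR proteins activate it. Promoter windows from RefSeq (GRCm38.p6), covering 250 bases before to 50 bases after an annotated start, matched 9 of the 10 genes (not Per2), with 13 windows in all. The ROR element core, searched as TAGGTCA or TGGGTCA on both strands, occurred in 1 of the 13 windows, the second Arntl window at chr7:113207261-113207560 on the plus strand, and in 6.45% of 32851 windows of all genes. It began at base 31 after the start and is shown in capitals.
Arntl promoter, window 2: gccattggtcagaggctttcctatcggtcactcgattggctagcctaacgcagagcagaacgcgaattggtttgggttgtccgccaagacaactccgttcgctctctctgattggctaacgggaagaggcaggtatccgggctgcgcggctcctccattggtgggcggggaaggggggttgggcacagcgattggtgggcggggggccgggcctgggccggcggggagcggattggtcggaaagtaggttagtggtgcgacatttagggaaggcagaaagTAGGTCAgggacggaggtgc

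Clock encodes the partner of BMAL1 in the activator pair, a bHLH-PAS protein with histone acetyltransferase activity. Probe set 1418659_at had 1584, 1811, 2084 and 2379 on arrays 1 to 4, and 1435775_at had 1785, 2134, 1918 and 1662. Both were above the threshold on all arrays, at 1.68-fold and 1.61-fold, with limma adjusted p-values of 4.15e-04 and 0.00148. Probe set 1418660_at, at 1480, 1981, 1181 and 1344, passed on 3 arrays and was below the threshold on array 3. Probe set 1439314_at, at 487 to 733, was below the threshold throughout, so the 4 probe sets of Clock did not give 1 answer. None of the 3 Clock promoter windows held any of the motifs searched.

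Stand-ins for both activators exist: NPAS2 can replace CLOCK, and BMAL2, encoded by Arntl2, is a paralogue of BMAL1. Neither gene was above background, beside 51.6% of all named genes. With the 75th percentile as threshold 1 of them was, beside 65.3%. Npas2 had a mean signal of 1047 ± 244 for the higher of its probe sets, which passed on 2 arrays, and Arntl2 had 538 ± 288 and passed on none.

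The 3 Period genes encode the PAS-domain repressors of the loop, and they differed in whether their signal exceeded background. Per1, which responds rapidly to light and hormone signals in other tissues, had 2894, 3716, 3203 and 3891 on its single probe set, 1449851_at. Every array was above the threshold, by 2.94-fold on average over log2 ratios, as for every fold over the threshold given here (log2 ratio 1.56 ± 0.13 SE, limma adjusted p = 1.99e-08). Arrays 2 and 4 were the brighter ones and arrays 1 and 3 the dimmer ones, around a mean of 3426 ± 459 (SD, n = 4 arrays).

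Per2 is a repressor whose mutation shortens or disrupts daily rhythms in mice, and none of its 3 probe sets exceeded the threshold on any array. Probe set 1417602_at had 365, 551, 451 and 199. Probe set 1417603_at had 291, 566, 72.5 and 212. Probe set 1457350_at had 139, 149, 598 and 172, with array 3 apart from the other arrays. On average over the arrays, as the mean of log2 ratios turned back to a linear scale, the signals were 0.317, 0.194 and 0.186 of the threshold, which does not show that the gene was silent. Of all genes with 3 probe sets, 73.4% were above background.

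Per3, a Period gene with a lesser part in timekeeping in mice, was measured by 6 probe sets that split evenly. Probe set 1421087_at had 2477, 2319, 2548 and 1643, above the threshold on each array, with array 4 the lowest (1.91-fold on average, limma adjusted p = 1.25e-04). Probe sets 1421086_at, at 1326 to 1904, and 1460662_at, at 1012 to 1364, also passed on all arrays. They lay only 1.35-fold and 1.05-fold over the threshold and missed the limma test, with adjusted p-values of 0.0514 and 0.912. The other probe sets, 1441445_at, 1442243_at and 1458176_at, had means of 1086, 701 and 860 and passed on 2, 0 and 1 arrays. The 3 Per3 probe sets above background are annotated with a RefSeq transcript and the 3 others with expressed sequence tags. Over the 23 clock probe sets, 4 of 5 with a RefSeq transcript and 4 of 12 with an expressed sequence tag were above background. The shares among all named probe sets were 49.5% and 39.0%. Those 5 probe sets belong to Per3 and Nr1d2 alone. Of clock probe sets with another kind of record, 3 of 5 were above background, beside 42.6% of all. That of Nr1d1, with no record, was not.

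The Period promoters carry different elements. E-boxes, searched as CACGTG, which reads the same on both strands, are the sites of CLOCK and BMAL1. They occurred in 2 of the 13 clock gene windows, 1 each in Per1 and Cry1, and in 7.15% of all windows. D-boxes, sites of DBP and its relatives, were searched as TTATGTAA, TTACATAA, TTACGTAA or TTATATAA on both strands, and occurred in 1 of the 13 windows and in 1.59% of all windows. That window was the one of Per3, which held 2 copies, beginning at -205 and -158 from the start, while the E-box of Per1 began at -166. The Per1 window lies at chr11:69098699-69098998 on the plus strand and the Per3 window at chr4:151044616-151044915 on the minus strand, and capitals mark the E-box and the D-boxes.
Per1 promoter, window 1: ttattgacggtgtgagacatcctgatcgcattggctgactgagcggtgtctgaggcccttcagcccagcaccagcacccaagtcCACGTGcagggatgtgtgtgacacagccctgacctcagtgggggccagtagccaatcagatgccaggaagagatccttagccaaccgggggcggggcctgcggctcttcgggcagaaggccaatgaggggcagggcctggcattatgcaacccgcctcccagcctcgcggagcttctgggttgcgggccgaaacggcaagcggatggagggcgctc
Per3 promoter: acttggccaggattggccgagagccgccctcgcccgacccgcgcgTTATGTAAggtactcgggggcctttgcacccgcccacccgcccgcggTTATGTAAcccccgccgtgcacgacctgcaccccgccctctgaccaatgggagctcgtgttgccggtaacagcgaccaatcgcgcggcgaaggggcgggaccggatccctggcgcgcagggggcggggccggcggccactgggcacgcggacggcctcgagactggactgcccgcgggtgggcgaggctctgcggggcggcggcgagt

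The cryptochromes are the stronger transcriptional repressors of the loop and bind CLOCK and BMAL1 directly. Cry2 had 2575, 2678, 2834 and 3008 on its single probe set, 1426383_at. These values lay close together and above the threshold on every array, by 2.39-fold on average (log2 ratio 1.26 ± 0.14 SE, limma adjusted p = 3.60e-07). Cry1 had 1576, 1056, 1879 and 1374 on its single probe set, 1433733_a_at. The suffix marks sequence shared by transcripts of the same gene, so without such probe sets Cry1 was not measured. Array 2 lay just below its threshold, at a ratio of 0.963, and the other arrays were above theirs. Without array 2 Cry1 was above background, and over all 4 arrays its 1.24-fold excess had a limma adjusted p of 0.168. A difference between Cry2 and Cry1 was not tested, because signals of different probe sets also depend on the probe.

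The Cry1 window, at chr10:85185005-85185304 on the minus strand, was the only one of the 13 to hold both an E-box, beginning at -60, and the related E-prime box, beginning at -79. The E-prime box was searched as CACGTT on both strands and was found in 3 of the 13 windows, those of Cry1, Cry2 and Nr1d1, and in 4.68% of all windows. Capitals mark both elements, the E-prime box first and on the minus strand.
Cry1 promoter: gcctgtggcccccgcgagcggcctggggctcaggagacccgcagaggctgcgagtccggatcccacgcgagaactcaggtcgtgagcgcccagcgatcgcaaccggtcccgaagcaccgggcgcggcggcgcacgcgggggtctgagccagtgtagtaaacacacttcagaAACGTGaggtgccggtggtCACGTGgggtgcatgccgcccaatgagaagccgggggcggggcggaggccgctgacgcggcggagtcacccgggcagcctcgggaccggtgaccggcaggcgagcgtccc

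The REV-ERB genes encode haem-binding nuclear receptors that repress Arntl. Nr1d2, the gene for REV-ERB beta, had 8675, 7276, 8933 and 8572 on probe set 1416958_at. This was the clock probe set farthest above its background, 7.21-fold on average (log2 ratio 2.85 ± 0.11 SE, limma adjusted p = 1.28e-12), and all arrays lay well over the threshold. The other Nr1d2 probe set, 1416959_at, annotated with the same RefSeq transcript, had 1043, 773, 719 and 1099 and passed on array 1 alone. Nr1d1, the gene for REV-ERB alpha, had 1055, 223, 774 and 1376 on its single probe set, 1426464_at. Arrays 1 and 4 were just above the threshold and arrays 2 and 3 below it, with array 2 the lowest, so the arrays did not settle whether Nr1d1 was above background. The Nr1d2 window held none of the motifs, and that of Nr1d1 held 1 E-prime box, beginning at -28.

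Dbp, a PAR bZIP activator and one of the most strongly rhythmic transcripts known in liver, was above background on both of its probe sets. Probe set 1438211_s_at had 3519, 3070, 2832 and 2633, 2.59-fold over the threshold on average (limma adjusted p = 5.44e-07). Probe set 1418174_at had 1916, 1551, 2086 and 1998, 1.62-fold over the threshold (limma adjusted p = 0.00104). The first of these carries a suffix that marks sequence shared with other transcripts, and the call for Dbp held without it. Dbp was the only clock gene with more than 1 probe set whose probe sets were all above background. The Dbp window held no match to any of the motifs. The cyclic AMP response element, searched as TGACGTCA, was found in 0 of the 13 windows and in 1.79% of all windows, and no match says only that these letters are not in the window.

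**Figure D2:**
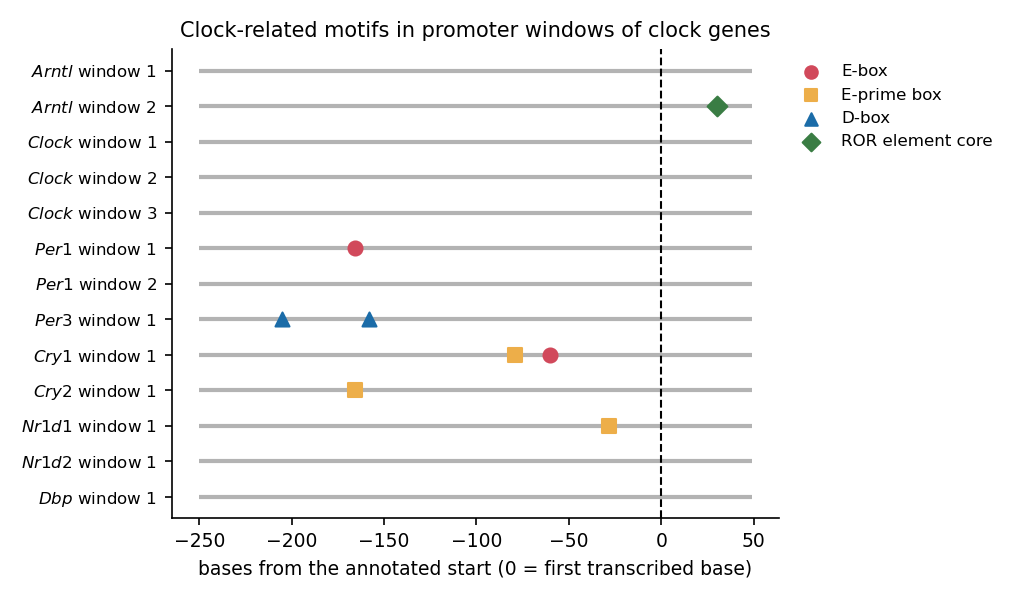
Positions of motif matches in the 13 RefSeq promoter windows of 9 clock genes, in bases from the annotated start, with a grey line for each window and a symbol at the first base of each match. Matches lie in 6 windows: the second of Arntl, the first of Per1, and those of Per3, Cry1, Cry2 and Nr1d1.

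The clock signals above background were modest. Over the 11 clock probe sets above background the median excess over the threshold was 1.68-fold, and 10 of the 11 lay below 3.71-fold, the median of the 14840 named probe sets above background. The exception was Nr1d2 1416958_at, at percentile 74.3 of that set. Brightness depends on the probe as well as on the transcript, so these positions give no order of mRNA amounts.

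**Figure D3:**
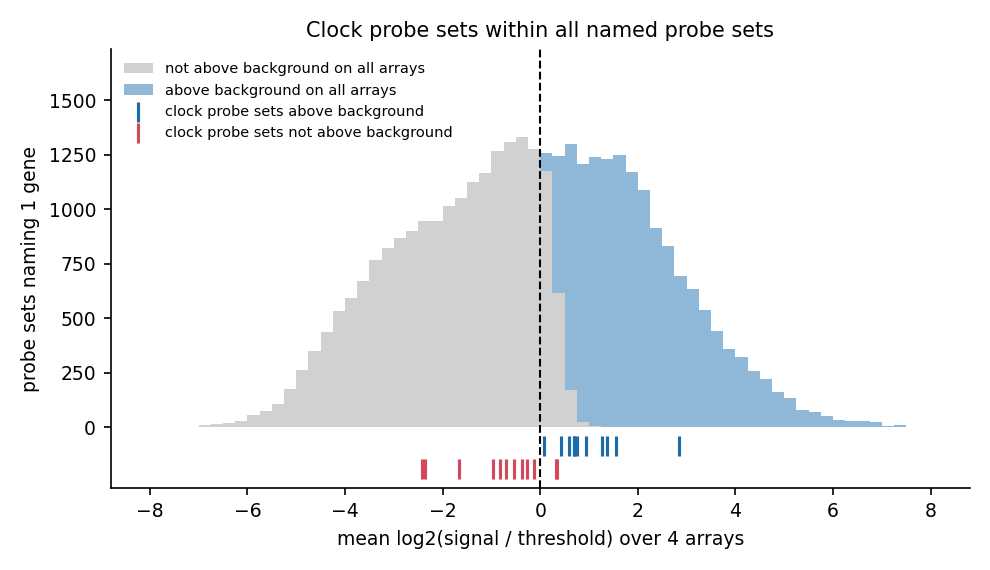
Histogram of the mean log2(signal / threshold) over 4 arrays for the 34945 probe sets naming 1 gene, stacked by whether they were above background on all arrays, with clock probe sets as ticks underneath and a dashed line at the threshold. The 11 clock probe sets above background gather near the threshold, apart from that of Nr1d2 at 2.85.

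The spread between arrays was wider for the clock probe sets not above background than for those above it. The call itself favours a narrow spread, because it needs every array over the threshold, so a dependence on brightness was not tested. For the 11 clock probe sets above background the SD of log2 signal had a median of 0.19 and ran from 0.06 (Arntl 1425099_a_at) to 0.29 (Per3 1421087_at), and the median was 0.12 without array 2. It was 0.18 for the 11025 named probe sets above background in the same range of signal. For the 12 clock probe sets not above background the median was 0.51, up to 1.24 for Per2 1417603_at and 1.16 for Nr1d1, where the median of all such probe sets was 0.64. Per single array, 16, 14, 12 and 14 of the 23 clock probe sets exceeded the threshold of arrays 1 to 4. Array 3, with the fewest, also had the highest threshold. The share of all named probe sets per single array was not computed, so these counts cannot be set against the array as a whole.

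**Figure D4:**
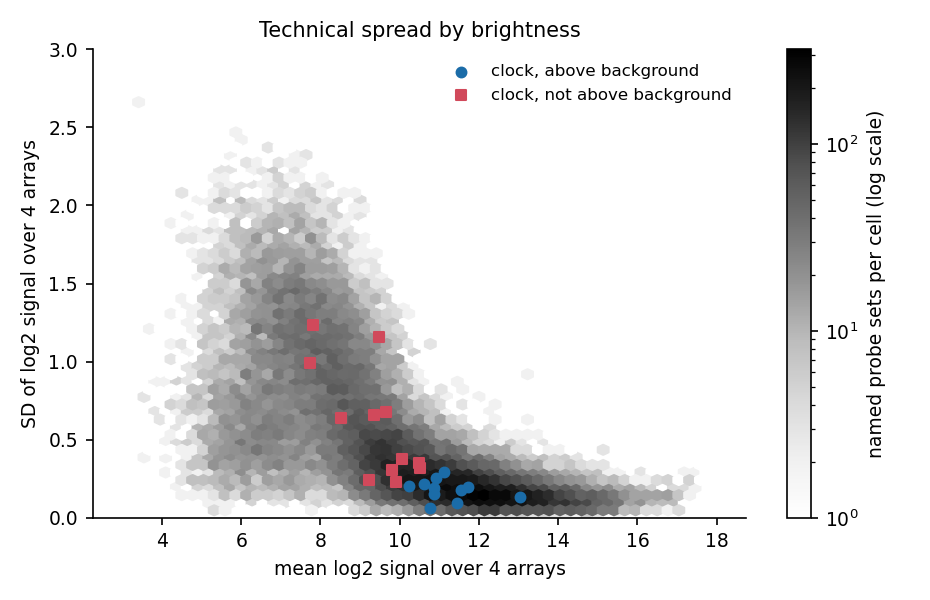
SD of log2 signal over the 4 arrays against mean log2 signal for all named probe sets (grey, darker where more probe sets fall) and for clock probe sets above background (circles) and not above background (squares). Clock probe sets above background have SDs of 0.06 to 0.29, and the largest clock SDs, 1.24 for Per2 and 1.16 for Nr1d1, are among the dim ones.

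Of the other clock pathway genes, 39 of 55 measured genes in 10 lists (70.9%) were above background, beside 51.6% of all named genes. A further 6 listed genes had no probe set naming them alone here and are not analysed. Without the list of 6 neuropeptide and receptor genes of the central clock, the count was 39 of 49 (79.6%). None of those 6 was above background, so leaving them out could only raise the share. The number of probe sets per gene bears on these counts as well. Of all genes, 35.2% with 1 probe set and 87.3% with 6 were above background. Listed genes had from 1 (Hdac3) to 9 (Rora) probe sets, and no share matched for this was computed. Many of these genes serve other processes in every cell, and the lists were not tested against other lists.

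The activators and repressors that share binding sites with the clock genes were mixed. Among the factors at ROR elements, Rora, a ROR activator, had a signal of 4538 ± 313 and was 3.92-fold over the threshold. Hdac3, the histone deacetylase that works with REV-ERB proteins, had 9694 ± 1130. Its only probe set carries a suffix that marks sequence shared with other transcripts, so without such probe sets Hdac3 was not measured. Rorb, a relative of Rora known from retina and brain, had 531 ± 182 and was not above background. At D-boxes, Tef, a PAR bZIP factor closely related to DBP, had 10217 ± 986 and Hlf, the remaining PAR factor, had 1568 ± 308. Nfil3, the repressor that competes at D-boxes, had 771 ± 241 and passed on 1 array. Tef was thus 8.80-fold and Hlf 1.34-fold over the threshold, and Hlf was not above it with the 99th percentile or with testis and retina genes as background.

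Of 8 other repressors and PER partners, 5 were above background, beside 51.6% of all named genes. Nono and Sfpq, RNA-binding proteins that associate with PER, had 50579 ± 6496 and 20885 ± 4346, and Cipc, a repressor of CLOCK, had 6404 ± 608. The values of Nono and Cipc come from probe sets whose suffix marks shared sequence, and both calls held without such probe sets. Not above background were Bhlhe41, at 535 ± 369, and Ciart, an E-box repressor that is strongly rhythmic in other mouse tissues, at 356 ± 257, together with Timeless. Bhlhe40, the paralogue of Bhlhe41, was above background at 2691 ± 605.

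Genes that act on clock proteins after translation were above background for 11 of the 13 measured, 6 of 7 kinases and 5 of 6 ubiquitin enzymes. The share of all named genes was 51.6%. The casein kinase genes Csnk1a1 and Csnk1d, whose products phosphorylate PER, had 37805 ± 1147 and 22927 ± 7110. Gsk3b, another clock kinase, had 23826 ± 3211, and Prkaa1, a subunit of AMP-activated kinase that targets CRY1, had 1086 ± 390 and passed on 2 arrays. Fbxw11 and Btrc, the ligase subunits that mark PER for degradation, were above background, Fbxw11 at 19938 ± 1232. Only 2 of the 5 Btrc probe sets passed, and by their median Btrc was not above background. Usp7, a deubiquitinase, and Fbxw7, a further ligase subunit, had 12444 ± 1592 and 5734 ± 1108. Fbxl21, a ligase subunit that acts on CRY, had 349 ± 209 and was not above background.

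All 8 chromatin and NAD cofactors of CLOCK and BMAL1 were above background, beside 51.6% of all named genes, among them the acetyltransferase genes Crebbp at 11430 ± 1984, Kat2b at 10545 ± 261 and Ep300 at 7644 ± 799. Sirt1 was lost with a background of testis and retina genes (7 of 8), and Kdm5a and Ppargc1a with the median of a gene's probe sets (6 of 8). All 5 measured output genes were above background, among them Cdkn1a, a cell cycle inhibitor, at 51587 ± 3178, Cirbp, a cold-inducible RNA-binding protein, at 14674 ± 1289, and Noct (nocturnin) at 7646 ± 502. Of 7 genes that receive or answer entraining signals, 6 were above background. Sgk1 and Tsc22d3, both induced by glucocorticoids, had 9261 ± 983 and 8095 ± 1146, and Creb1, a factor of cyclic AMP signalling, had 5435 ± 254, while Crem had 1049 ± 231 and passed on 1 array. With the median of a gene's probe sets in place of any, 3 of the 7 were above background and Creb1, Nr3c1 and Insr were not, and Tsc22d3 was not above it without probe sets of shared sequence.

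None of the 6 neuropeptide and receptor genes of the central clock was above background, beside 51.6% of all named genes. The limma test also called none, beside 50.9%. Avp (vasopressin) had 810 ± 239 and passed on 1 array, and Grp (gastrin-releasing peptide) had 294 ± 194 and passed on none. At an unadjusted limma p under 0.05, 0 of their probe sets passed. With the 75th percentile as background 2 of the 6 genes were above it, beside 65.3% of all named genes.

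**Figure D5:**
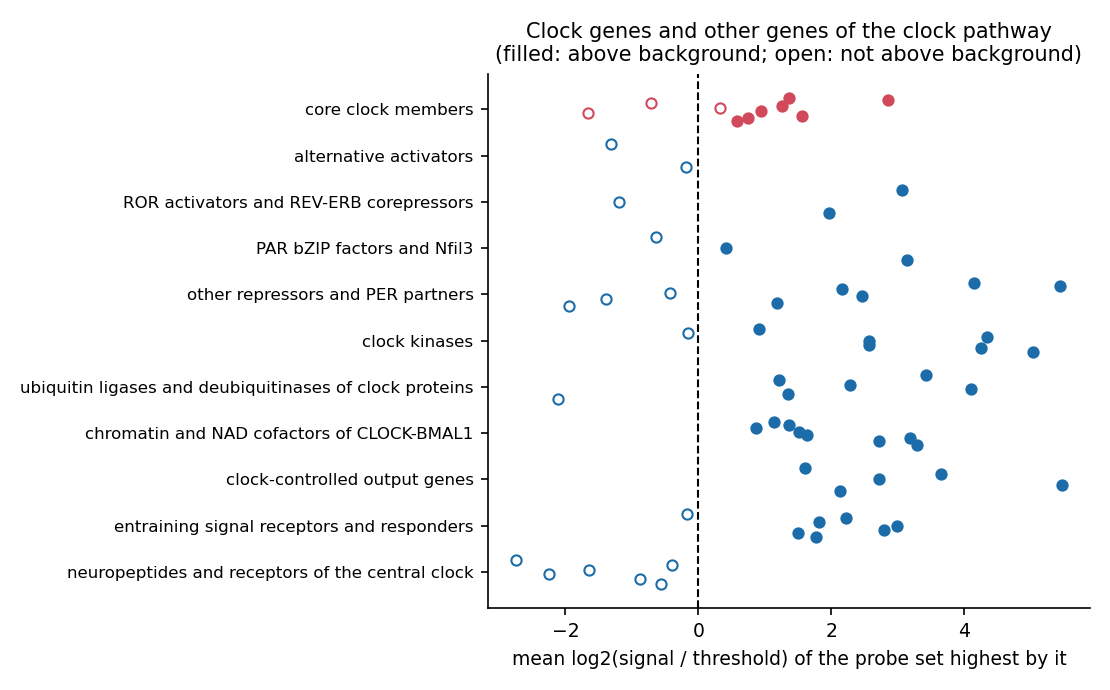
Mean log2(signal / threshold) of each gene's probe set with the highest such mean, by list, for the 10 clock genes (red) and 55 other clock pathway genes (blue), filled where the gene was above background and open where it was not, with a dashed line at the threshold. All 8 chromatin and NAD cofactors and all 5 output genes are filled, and all 6 neuropeptide genes are open.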

How the data were processed

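Per the submitters' processing notes, the authors made the deposited signal intensity values with MAS5, which summarises each probe set from perfect-match probes and their mismatch partners. The sources used here give neither its version nor its settings. The 2% trimmed mean that was computed came to 2500, but it was not computed for each array. Whether the deposited intensity values had been scaled to a common target was therefore not tested. No further normalisation was applied. The mismatch subtraction of MAS5 makes dim signals noisy. Depth in reads does not exist for arrays, and their number limits the precision.

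Gene names came from the platform annotation, and all 23 clock probe sets matched their symbol in the RefSeq gene table (GRCm38.p6) by gene ID. The 64 control probe sets were left out. Calls used the threshold given in the report, and log2(signal / threshold) was tested with limma 3.58.1 (R 4.3.3, mean-variance trend, one-sided, Benjamini-Hochberg, adjusted p under 0.05). Calls and the limma test were tested on simulated data. Of signals set 1.5-fold over the threshold, the rule of all 4 arrays called 84.0% and limma 92.0%. At 2-fold both called 100.0%. Of signals at or below the threshold, the rule called 0.133% and limma 0.0265%. Rates for an excess under 1.5-fold were not computed. A gene's values are those of its probe set with the highest mean log2 ratio.

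Members and lists were chosen with earlier results of these data known. Named were all members, up to 3 genes above background and up to 2 not above background per pathway list, and 3 tooth markers. Bhlhe40, Timeless, Btrc and genes named only for a lost call were added after their values were seen. No genes of like pattern were sought, since the arrays are technical replicates. Alternatives were other percentiles and another gene set for background, 3 of 4 arrays, the limma call, quantile normalisation, probe sets without shared-sequence suffixes, the median probe set, leaving out each array, and a wider E-box spelling.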

Additional observations from a re-analysis of the deposited data

Results flagged for a closer look

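Among the 23 clock probe sets, each with 4 array values, a gap test on log2 signal picked out 1 set in which an array lay apart from the others, where chance gives about 1 in 20 (1.15 of 23). It was Per2 1457350_at, with a signal of 598 on array 3 and 139 to 172 on the other arrays. All 4 values were below the background threshold of their array, and the other Per2 probe sets had 451 and 72.5 on array 3.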

How the results depend on the processing

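The 7 of 10 clock genes above background became 5 to 8 under the alternatives, always within 1.5 times. The share of all named genes, 51.6%, moved as well. The count was 7 at the 99th percentile (48.2% of all genes), with limma (50.9%) and after quantile normalisation (51.6%). It was 8 at the 75th percentile (65.3%) and with 3 of 4 arrays (55.9%). It was 6 with the testis and retina background (44.9%), 6 of 9 without shared-sequence suffixes (46.6%), 5 with the median probe set (39.3%), and 7 to 8 without 1 array (51.8% to 54.1%). The genes that changed were Arntl, lost with the testis and retina background, without such suffixes and with the median probe set, Per3, lost with the median probe set, and Cry1, gained at the 75th percentile, with 3 of 4 arrays and without array 2. The 11 of 23 clock probe sets became 6 with the testis and retina background, and otherwise 9 to 16. Among these alternatives the share of all named probe sets was computed only for limma (9 of 23, beside 41.8%). The other probe set counts therefore cannot be set against the array as a whole. Without 1 array they numbered 11 to 12. The 39 of 55 pathway genes became 33 to 45 and stayed at 39 without any 1 array. The median SD of clock probe sets above background, 0.19, was 0.18 after quantile normalisation and 0.12 to 0.21 without 1 array, lowest without array 2. An E-box as CACGTG was in the windows of 2 of 9 clock genes and 8.09% of all genes, and CACGTG or CACGTT in 4 of 9 and 13.0%. Causes of these changes were not tested, apart from the wider spelling itself. No paired analysis was possible because the 4 arrays form 1 group. Signals near the threshold limit the calls for Arntl, Clock, Per3 (also 1460662_at alone) and Cry1. With the testis and retina background the lowest log2 ratios behind the Clock and Per3 calls were 0.03 and 0.01. The spread between arrays (SD of log2 signal 1.16) limits the call for Nr1d1.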
